A study of Mus musculus with 10 samples.

Results

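The Runx, Cbfb and ETO gene family was followed in mouse progenitor cells with and without the adaptor protein Ldb1. The members are the 3 Runx genes (Runx1, Runx2 and Runx3), their partner gene Cbfb, and the 3 ETO genes (Runx1t1, Cbfa2t2 and Cbfa2t3). They were chosen by gene symbol, and all 7 were found among the 21868 genes of the count table. The 4 Ldb1 peaks that lie in the Runx1 area, of 4252 listed peaks, belong to the same account. The cells were grown as embryoid bodies, in which aggregated mouse embryonic stem (ES) cells differentiate. They were sorted for Flk1, the product of Kdr and a receptor of early blood and endothelial progenitors. RNA was sequenced from Ldb1+/+ cells (WT) and Ldb1-/- cells (KO), with 4 libraries per genotype, on an embryoid body day that the sources used here do not give. Binding of Ldb1 was mapped by chromatin immunoprecipitation (ChIP) in Flk1+ cells of day 4 embryoid bodies, with 1 library made with the anti-Ldb1 antibody N-18 and 1 control library made with no antibody. The sources used here give neither the genotype of the ChIP cells nor the number of ES cell clones behind each genotype, so a difference between genotypes cannot be told apart from one between cell lines.

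Runx proteins bind DNA through the Runt domain, and the Cbfb protein, which does not touch DNA itself, binds that domain and strengthens its hold. Runx1 is required for the emergence of blood cells from endothelium, Runx2 for bone formation, and Runx3 acts in sensory neurons and lymphocytes. The ETO proteins are corepressors that do not bind DNA directly. Runx1t1 is known for its fusion with RUNX1 in acute myeloid leukaemia, and Cbfa2t3, also called Eto2, is a member of the Ldb1 complexes that form with Tal1, Lmo2 and Gata factors in blood cells.

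In each genotype, the counts of libraries 1 and 2 agreed to almost within counting noise, and so did those of libraries 3 and 4. Each of these pairs was summed and counted as 1 sample, named A for libraries 1 and 2 and B for libraries 3 and 4, which gave n = 2 samples per genotype with 22674679 to 26775787 counts each. Whether A and B came from separate cultures is not said in the labels, and p-values reflect only the spread between these samples, which may be technical. Ldb1 itself stood at 104.3 to 116.4 CPM (library counts scaled to 1000000) in WT libraries and at 79.1 to 96.6 CPM in KO libraries, and the sources used here do not say which part of the gene was deleted, so this level does not check the labels. The marker of the sort, Kdr, stood at 440 CPM (A) and 605 CPM (B) in WT, against 236 CPM (A) and 78.6 CPM (B) in KO. The summed level of 4 blood markers (Gata1, Ptprc, Itga2b and Hbb-bh1) was 72.4 and 88.1 CPM (WT) against 6.65 and 4.84 CPM (KO), with Hbb-bh1 at 0 reads in both KO samples. Itga2b made up most of the WT sums (53.2 and 56.8 CPM), and Ptprc, at 4 to 6 reads per sample, was not lower in KO. Smooth muscle and mesenchyme markers (Acta2, Tagln, Col1a1, Col1a2 and Pdgfrb) summed to 630 and 862 CPM in WT and to 1525 and 3003 CPM in KO. Of these 5, Col1a2 rose by edgeR (log2 fold change 3.19, SE 0.28, adjusted p = 0.0493), as 0.0596% of all genes did. At an unadjusted p under 0.05, 3 of the 5 were higher, Col1a2 included, where 7.61% of all genes were. The part of these markers in the family's values was not tested. Because these are bulk samples, fewer cells of a type and less RNA per cell cannot be told apart.

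The family members differed widely in level. Divided by transcript length, the mean WT level of Cbfb was 29.2 ± 0.398 CPM per kb (SD, n = 2 here and throughout) and that of Cbfa2t2 was 14.7 ± 2.62 CPM per kb. Cbfa2t3 followed at 5.16 ± 0.152 and Runx1 at 3.44 ± 1.62 CPM per kb. Runx1t1 (1.57 ± 0.0701), Runx3 (1.57 ± 0.104) and Runx2 (1.26 ± 0.0646) were the lowest. In WT the samples of Runx1t1 and Runx3 overlapped, while those of the other neighbours in this order did not, though Runx1 varied widely. In KO the order was Cbfb (43.6 ± 1.52), Cbfa2t2 (15.2 ± 0.417), Runx1 (1.71 ± 0.392), Runx3 (1.57 ± 0.0384), Runx1t1 (1.57 ± 0.0265), Runx2 (1.35 ± 0.0965) and Cbfa2t3 (1.35 ± 0.714) in CPM per kb, with the means of Runx2 and Cbfa2t3 nearly equal. The KO samples of Cbfa2t3 (1.85 and 0.844) spanned those of Runx2, Runx3 and Runx1t1 and overlapped those of Runx1, so the place of Cbfa2t3 among these 5 genes in KO was not separated by the spread, although Cbfa2t3 lay above Runx1 in WT.

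**Figure D1:**
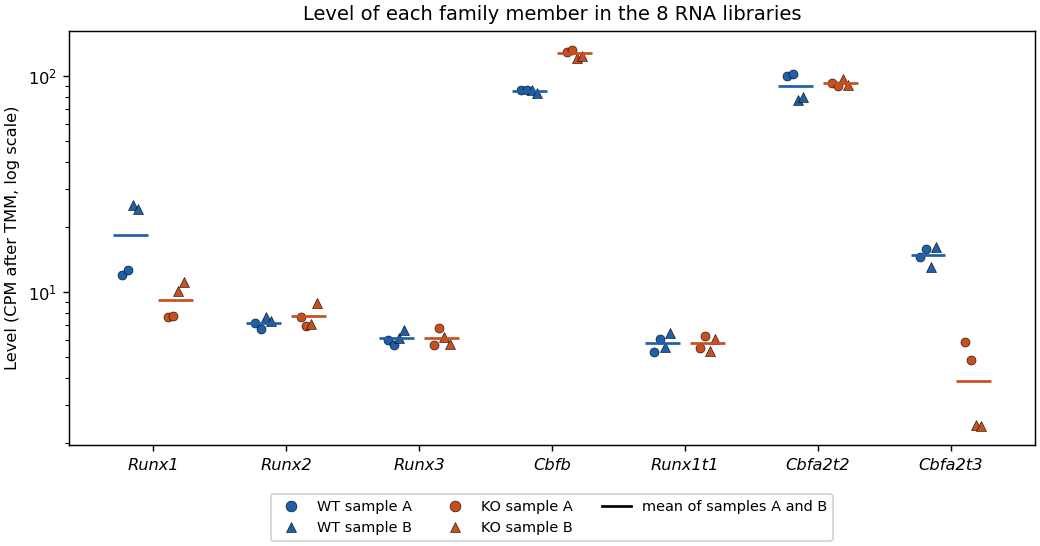
Level of each member in the 8 RNA libraries, in CPM after TMM scaling on a log axis. Blue marks are WT and orange marks KO, circles are the libraries of sample A, triangles those of sample B, and bars are means over the 2 samples. Cbfa2t3 and Runx1 lie lower in both KO samples than in both WT samples, Cbfb lies higher, and the other 4 members overlap.

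Runx1, the blood gene of the family, was lower in both KO samples without passing the test over all genes, and its level differed widely between the WT samples. WT sample A held 288 reads (12.3 CPM) and WT sample B 650 reads (24.5 CPM), while KO sample A held 178 reads (7.69 CPM) and KO sample B 273 reads (10.7 CPM). Both KO samples lay below both WT samples, though KO sample B came close to WT sample A. The fitted difference was a log2 fold change of -1.01 (SE 0.39, 95% interval -2.0 to -0.014), which is 2.01-fold lower in KO. It did not pass the edgeR quasi-likelihood test over all genes (unadjusted p = 0.0478, adjusted p = 0.317).

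The size of the Runx1 difference depended on which WT sample it was set against. Without WT sample B it was -0.42 and without WT sample A -1.43, the ends of its range over all 22 alternatives. Both of these fits leave 1 WT sample, so their p-values are not given. Samples A alone gave a log2 difference between KO and WT of -0.68 and samples B alone -1.20. The difference between WT samples A and B (0.997 on the log2 scale) was about as large as that between genotypes. Markers of early progenitors, primitive streak and pluripotent cells differed between the same samples. The summed level of 5 early Flk1 progenitor markers (Kdr, Etv2, Mesp1, Pdgfra and Snai1) was 460 CPM in WT sample A, 716 CPM in WT sample B, 260 CPM in KO sample A and 95.3 CPM in KO sample B. Kdr, the marker of the sort, made up most of each sum (440, 605, 236 and 78.6 CPM in the same order). Mesp1 stood at 0.256, 18.5, 0.778 and 0.117 CPM, and each of the 5 markers was highest in WT sample B. The summed level of 5 streak markers (T, Mixl1, Eomes, Gsc and Fgf8) was 16.3, 160, 49.7 and 17.8 CPM in the same order. Of 5 pluripotency markers (Pou5f1, Nanog, Zfp42, Sox2 and Esrrb) the sum was 1125, 293, 562 and 645 CPM, highest in WT sample A and lowest in WT sample B. The part of these markers in the Runx1 difference was not tested.

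Runx2 and Runx3 stood at nearly the same level in all 4 samples. For Runx2 the values were 6.91 and 7.43 CPM (WT) against 7.30 and 8.08 CPM (KO), a log2 fold change of 0.10 (SE 0.23, 95% interval -0.47 to 0.67, edgeR adjusted p = 0.905). For Runx3 they were 5.80 and 6.38 CPM (WT) against 6.22 and 6.01 CPM (KO), a log2 fold change of 0.0053 (SE 0.24, 95% interval -0.59 to 0.60, adjusted p = 0.996). The genotypes overlapped for both genes. With 136 to 207 reads per sample, the intervals still allow a difference of up to about these bounds in either direction. The gene model of Runx2 overlaps that of Supt3, which is also in the count table, and the sources used here do not say whether strand was used in the counting, so some Runx2 reads may belong to its neighbour.

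Runx1 is transcribed from an upstream and a downstream promoter, as is Runx3. RefSeq promoter sequences (build GRCm38.p6, 250 bases before to 50 bases after each start) were on hand for 6 of the 7 members, with 9 promoters in all. Runx1t1 was not among them. The longest run of letters common to the Runx1 and Runx3 upstream promoters and the Runx2 promoter was 18 bases long. It is shown because it is the sequence that links the 3 Runx genes. The run is in capitals, inside 30 bases of each promoter, 5′ to 3′ on the strand of the gene.

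Runx1 upstream promoter, chr16:92826025-92826054, minus strand: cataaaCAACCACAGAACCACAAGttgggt
Runx2 promoter, chr17:44814583-44814612, minus strand: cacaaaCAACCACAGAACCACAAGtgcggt
Runx3 upstream promoter, chr4:135120503-135120532, plus strand: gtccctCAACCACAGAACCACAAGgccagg

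The run starts 27 bases after the annotated start in Runx1, 22 bases after it in Runx2 and 136 bases before it in Runx3. It holds the Runx recognition letters ACCACA, which read TGTGGT on the other strand, at 2 places. Of the 32851 promoters in the table, 4 hold the run on either strand, and they lie at 3 distinct places in the genome, since the promoter of the noncoding gene Gm16225 overlaps that of Runx3 on the other strand. TGTGGT or its complement occurs in 16.8% of all promoters and in 3 of the 9 family promoters, which are these 3. The search for a common run was made after the sequences were seen, and a match of letters is a description, not evidence of binding. The 3 genes that share the run had log2 fold changes of -1.01, 0.10 and 0.0053.

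Cbfb, the shared partner of all 3 Runx proteins, was the most abundant member and was higher in KO. It held 2012 and 2232 reads in WT and 3013 and 3175 reads in KO. In CPM the WT samples stood at 85.9 and 84.2 and the KO samples at 130.2 and 123.9, with no overlap and a narrow spread in each genotype. The log2 fold change was 0.58 (SE 0.12, 95% interval 0.28 to 0.88), or 1.49-fold. It did not pass by edgeR (unadjusted p = 0.0038, adjusted p = 0.123), while it passed by DESeq2 (adjusted p = 0.00453). Over the 22 alternatives the log2 fold change ran from 0.33 to 0.61. The lowest adjusted p, 0.000112 by edgeR, came with 8 libraries as separate samples, which counts near-duplicate libraries as replicates.

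Cbfb lies on chromosome 8, whose genes as a whole stood higher in KO, with a median log2 fold change of 0.25 over 602 genes against 0.012 over 10715 genes of all chromosomes. Of the chromosome's genes, 86.0% had a lower value than Cbfb. With chromosome medians removed, the Cbfb difference was 0.33 (unadjusted p = 0.0368, edgeR adjusted p = 0.351). Relative to its chromosome the difference was thus smaller, and the cause of the shift of the chromosome was not tested. Cbfa2t3 lies on the same chromosome and differed in the opposite direction.

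Cbfa2t3, the ETO gene of the Ldb1 complex, showed the widest difference of the family. The WT samples held 354 and 384 reads, or 15.1 and 14.5 CPM, and the KO samples 123 and 62 reads, or 5.31 and 2.42 CPM. The WT samples were nearly equal, both KO samples lay far below them, and KO sample B lay below KO sample A by 1.14 on the log2 scale. The log2 fold change was -1.94 (SE 0.40, 95% interval -2.96 to -0.92), which is 3.83-fold lower in KO. It did not pass by edgeR (unadjusted p = 0.00412, adjusted p = 0.126) and passed by DESeq2 (adjusted p = 0.000676).

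The Cbfa2t3 difference was of like size against either WT sample and depended more on the KO samples. Without WT sample A it was -1.92 (edgeR adjusted p = 0.0315) and without WT sample B -1.97 (adjusted p = 0.027). It was -2.60 without KO sample A (adjusted p = 0.319) and -1.48 without KO sample B (adjusted p = 0.716), and over the 22 alternatives the adjusted p ran from 0.000676 to 0.716. Samples A alone gave -1.51 and samples B alone -2.58. With chromosome medians removed it was -2.19, and 0.166% of chromosome 8 genes had a lower value. The summed blood markers given above were also lower in both KO samples. Their 3 tested members were all lower at an unadjusted p under 0.05, where 7.86% of all genes were. Ptprc had too few reads to be tested and was not lower. The part of the blood markers in the Cbfa2t3 difference was not tested.

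Cbfa2t3 has an upstream and a downstream promoter in RefSeq. Ldb1 complexes of blood cells are known to sit on DNA with GATA letters and E-boxes, so the 250 bases before each start are shown with 3 motifs in capitals. These are GATAA, which reads TTATC on the other strand, the E-box letters CANNTG, and the Runx letters TGTGGT, which read ACCACA on the other strand. The 250 bases before the upstream and downstream starts of Runx1 are shown in the same way, since Ldb1 peaks lie in that area.

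Cbfa2t3 upstream promoter, chr8:122699110-122699359, minus strand: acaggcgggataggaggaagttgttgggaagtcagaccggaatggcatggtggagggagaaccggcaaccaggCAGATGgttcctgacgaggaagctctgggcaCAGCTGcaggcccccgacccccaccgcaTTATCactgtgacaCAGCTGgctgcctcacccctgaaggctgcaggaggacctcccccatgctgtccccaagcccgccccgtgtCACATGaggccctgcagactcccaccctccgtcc
Cbfa2t3 downstream promoter, chr8:122678176-122678425, minus strand: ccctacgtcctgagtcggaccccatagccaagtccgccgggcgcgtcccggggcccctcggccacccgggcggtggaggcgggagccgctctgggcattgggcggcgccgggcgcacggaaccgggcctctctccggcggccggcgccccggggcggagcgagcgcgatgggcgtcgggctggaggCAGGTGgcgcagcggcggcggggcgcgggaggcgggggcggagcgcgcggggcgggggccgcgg
Runx1 upstream promoter, chr16:92826075-92826324, minus strand: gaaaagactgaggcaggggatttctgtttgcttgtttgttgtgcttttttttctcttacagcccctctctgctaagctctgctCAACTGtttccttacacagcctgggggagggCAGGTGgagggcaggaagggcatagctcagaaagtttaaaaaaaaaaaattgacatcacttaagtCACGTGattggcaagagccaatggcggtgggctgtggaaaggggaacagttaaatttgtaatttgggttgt
Runx1 downstream promoter, chr16:92697330-92697579, minus strand: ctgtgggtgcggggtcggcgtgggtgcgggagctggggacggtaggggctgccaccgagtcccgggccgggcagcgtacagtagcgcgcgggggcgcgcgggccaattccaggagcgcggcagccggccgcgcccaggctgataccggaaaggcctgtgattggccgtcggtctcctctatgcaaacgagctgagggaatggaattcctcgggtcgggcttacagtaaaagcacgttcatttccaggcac

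The upstream promoter of Cbfa2t3 holds 1 GATAA match and 4 E-box matches in these bases, and its downstream promoter holds 1 E-box match. It was the 1 family promoter of 9 with GATAA, which occurs in 25.4% of all promoters. E-box letters occur in 72.3% of all promoters and in 6 of the 9. These GATAA and E-box shares and the counts among the 9 cover the full 300 bases of each promoter. In the 250 bases before its start, the downstream promoter of Runx3 holds no E-box. The upstream promoter of Runx1 holds 3 E-box matches and its downstream promoter none of these letters. The 2 Runx1 promoters also differ in base composition, with 45.6% G and C upstream and 67.6% downstream, against a median of 52.4% over all promoters. The counts do not separate reads from the 2 promoters, so their use in WT and KO was not measured.

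The other ETO genes did not differ between genotypes beyond their spread. Cbfa2t2, the most abundant of them, stood at 100.7 and 78.2 CPM (WT) against 90.9 and 94.5 CPM (KO), with the KO samples between the WT samples. Its log2 fold change was 0.052 (SE 0.16, 95% interval -0.35 to 0.46, edgeR adjusted p = 0.935). Runx1t1 stood at 5.63 and 6.00 CPM (WT) against 5.87 and 5.74 CPM (KO), a log2 fold change of -0.0031 (SE 0.24, 95% interval -0.60 to 0.60, adjusted p = 0.997). For Cbfa2t2 the interval does not reach the value of Cbfa2t3, although the difference between the 2 genes was not tested.

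**Figure D2:**
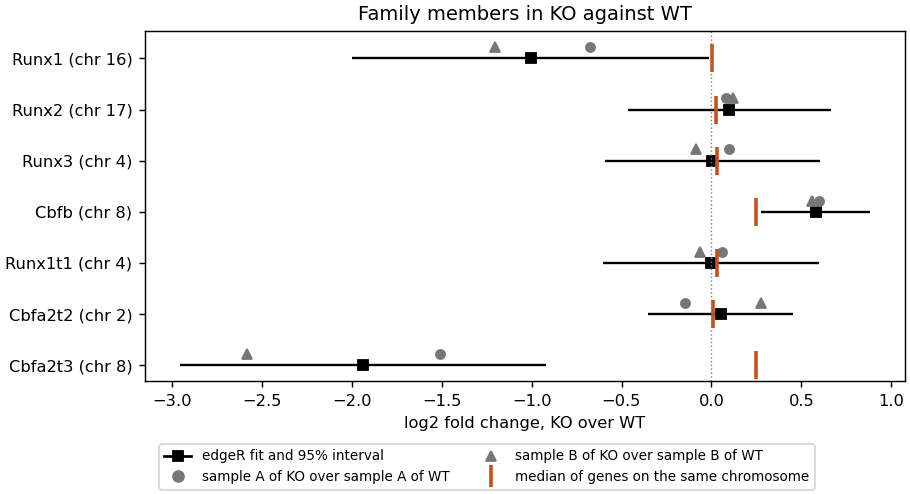
Log2 fold change of each member, KO over WT, with the chromosome that carries it. Squares and lines are the edgeR value and its 95% interval, grey circles and triangles set samples A and samples B of the 2 genotypes against each other, and orange ticks are the median of genes on the same chromosome. The intervals of Runx1, Cbfb and Cbfa2t3 leave out 0 before adjustment over all genes, and those of the other 4 members include it.

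By edgeR, 0 of the 7 members passed an adjusted p of 0.05, where 0.185% of the 16785 genes tested did (0.125% lower and 0.0596% higher). All 7 members passed the filter on low counts. Runx1 (ENSMUSG00000022952) lies on chromosome 16, Runx2 (ENSMUSG00000039153) on 17, Runx3 (ENSMUSG00000070691) and Runx1t1 (ENSMUSG00000006586) on 4, Cbfa2t2 (ENSMUSG00000038533) on 2, and Cbfb (ENSMUSG00000031885) and Cbfa2t3 (ENSMUSG00000006362) on 8. At an unadjusted p under 0.05, 2 members were lower (Runx1 and Cbfa2t3) and 1 was higher (Cbfb), against 7.86% of all genes lower and 7.61% higher. The same 2 members had both KO samples below both WT samples, where 22.4% of all genes did, and Cbfb had both above, where 23.2% did. By DESeq2, Cbfa2t3 was lower and Cbfb higher at an adjusted p of 0.05, where 3.85% of 15483 genes were lower and 3.69% higher. The median log2 fold change was 0.0053 over the members, the value of Runx3, and -0.0092 over all genes tested.

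The make-up of each subfamily followed its variable member. Runx1 made up 45.9% (A) and 60.9% (B) of the summed Runx level per kb in WT, against 33.3% (A) and 40.2% (B) in KO. The summed Runx level itself was 5.00 and 7.53 CPM per kb in WT and 4.32 and 4.95 in KO, so WT sample B stood apart from the other 3. Cbfb per kb exceeded the Runx sum 5.90-fold and 3.84-fold in WT and 10.4-fold and 8.59-fold in KO. Both KO ratios lay above both WT ratios.

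Among the ETO genes, Cbfa2t3 made up 22.6% and 25.9% of the summed level per kb in WT and 10.1% and 4.71% in KO. Cbfa2t2 made up 70.9% and 65.8% in WT and 81.3% and 86.6% in KO, although its own level did not shift with genotype. Runx1t1 stayed between 6.52% and 8.65%. The ratio of Cbfa2t2 to Cbfa2t3 per kb was 3.14 and 2.54 in WT and 8.07 and 18.4 in KO. For single ratios of 2 against 2 samples the smallest p of an exact permutation test is 0.333, so none was tested.

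**Figure D3:**
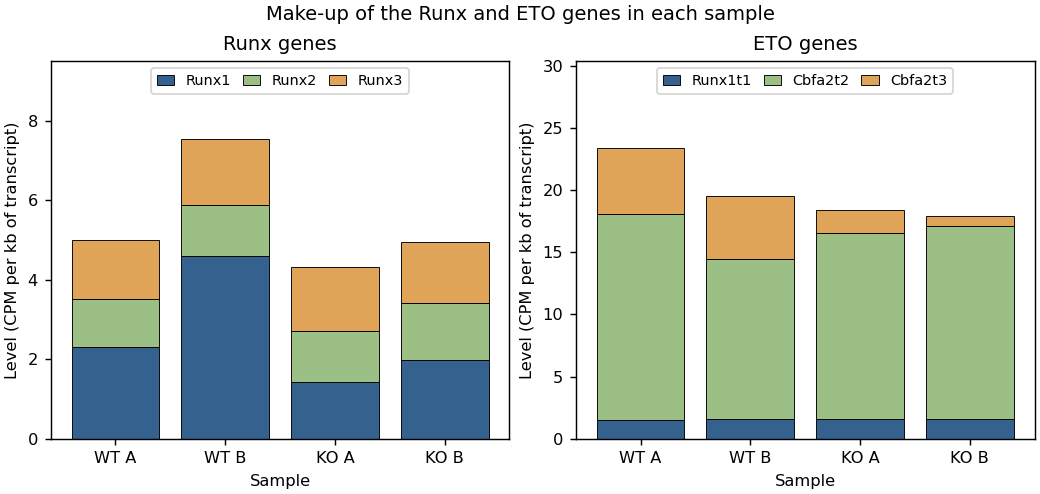
Stacked levels of the Runx genes (left) and ETO genes (right) in each of the 4 samples, in CPM per kb of transcript. Runx1 forms the variable part on the left and is largest in WT sample B. On the right the Cbfa2t3 part measures 5.27 and 5.05 CPM per kb in WT and 1.85 and 0.844 in KO.

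The Runx1 area carried 4 Ldb1 peaks, here numbered R1 to R4 by position in build mm9. R1 lies at chr16:92697383-92698040, R2 at chr16:92715661-92716360, R3 at chr16:92801640-92802405 and R4 at chr16:92822130-92823020. The highest coverage in the ChIP library, as given by the authors, was 22 at R1, 48 at R2, 60 at R3 and 44 at R4, against 7, 9, 5 and 2 in the control library. The deposited adjusted p-values were 0.00414, 1.52e-06, 1.67e-11 and 8.23e-10. With 1 ChIP and 1 control library there is no replicate check, and the sources used here do not say how the control was scaled.

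R3 was the highest of the 4. R1 lay just below the median coverage of the whole list, 24.0, in which no peak has a coverage under 20. Of all 4252 peaks, 5.36% reach the coverage of R3, 8.49% that of R2, 10.1% that of R4 and 72.4% that of R1. A coverage of at least 40 was reached by R2, R3 and R4 and by 12.3% of the list. By ratio of ChIP to control coverage R4 stood first, at 22, followed by R3 at 12, R2 at 5.33 and R1 at 3.14, where the median of the list was 5.50.

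The 4 peaks formed 2 pairs. R1 and R2 are 18.2 kb apart and R3 and R4 20.5 kb apart, with 86.0 kb between the pairs. The nearest listed peak before R1 is 907.6 kb away, and the nearest after R4 is 61.7 kb away. Of all listed peaks, 27.5% have at least 4 peaks, themselves included, within a 330 kb window centred on them, and 12.5% of the 3000 peaks outside chromosomes 8 and 11, which hold 340 and 912 peaks. Peaks (mm9) and promoter sequences (GRCm38.p6) are in different builds and were not set against each other. The RNA libraries may be of another day than the ChIP library, so peaks and expression were not joined in a test.

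**Figure D4:**
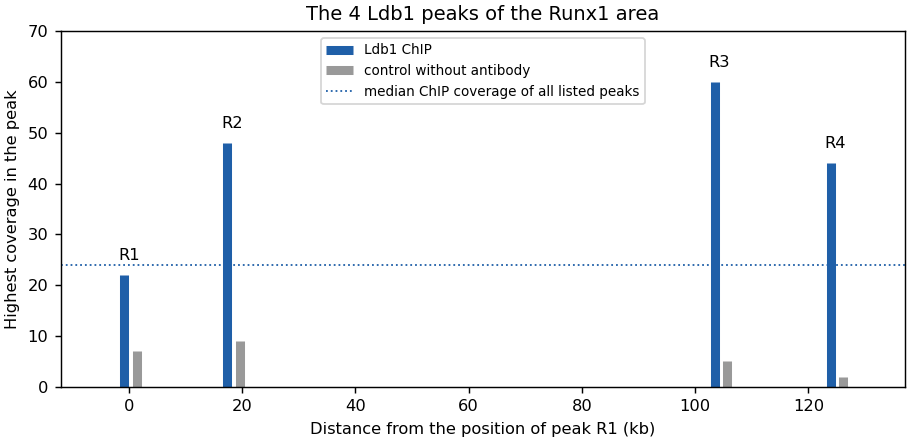
Highest coverage of the 4 Ldb1 peaks of the Runx1 area in the ChIP library (blue) and the control library (grey), by distance in kb from the position of R1. The dotted line is the median ChIP coverage of all listed peaks, 24.0. R2, R3 and R4 stand above that line and R1 stands just below it.

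The genes beside Runx1 were examined as neighbours in RefSeq order. Clic6, a chloride channel family gene on one side, stood at 39.7 and 72.8 CPM (WT) against 25.2 and 17.4 CPM (KO) (a difference of -1.40 on the log2 scale, SE 0.36, unadjusted p = 0.0124, edgeR adjusted p = 0.179). Like Runx1, it was highest in WT sample B and lower in both KO samples. The next gene on that side, 2410124H12Rik, had 4 to 11 reads per sample and was not tested. On the other side, the methyltransferase gene Setd4 had a log2 fold change of 0.18 (SE 0.20, adjusted p = 0.774) and the carbonyl reductase gene Cbr1 one of 0.45 (SE 0.16, adjusted p = 0.271). The values of the neighbours lay on both sides of 0.

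Genes with patterns like those of Runx1 and Cbfa2t3 over the 4 samples were listed. The measure was the root mean square difference of log2 CPM after each gene's mean was subtracted, over 11333 genes with a mean of at least 5 CPM. The genes nearest to Runx1 were Ppp1r3c (0.064), the growth factor receptor gene Fgfr3 (0.090), Gfpt2 (0.12), the parathyroid hormone receptor gene Pth1r (0.12) and Capn5 (0.13). Fgfr3, for example, stood at 9.73 and 21.5 CPM (WT) against 7.26 and 9.44 CPM (KO). The genes nearest to Cbfa2t3 were the calcium pump gene Atp2a3 (0.083), Adgrl4, an endothelial adhesion receptor gene (0.12), the monoamine transporter gene Slc18a2 (0.13), Zfp711 (0.14) and Chst2 (0.17). Atp2a3 stood at 103.9 and 103.5 CPM (WT) against 32.9 and 17.2 CPM (KO). Runx1 and Cbfa2t3 differed from each other by 0.86 on this measure, which placed Runx1 at 896 in order of nearness to Cbfa2t3 and Cbfa2t3 at 10039 in order of nearness to Runx1. With 4 samples, many genes can share a pattern, and nearness is a description.

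Of 15 genes known as RUNX1 targets in blood, 11 passed the filter on low counts. By edgeR over all genes, 2 fell and 0 rose, where 0.125% of all genes fell and 0.0596% rose. DESeq2 called 3 lower and 1 higher, against 3.85% and 3.69% of all genes. The integrin gene Itga2b went from 53.2 and 56.8 CPM (WT) to 3.46 and 2.65 CPM (KO), a log2 fold change of -4.17 (SE 0.20, edgeR adjusted p = 0.0102). It is also in the list of blood markers and lies on chromosome 11, whose genes had a median of -0.47. The erythroid and megakaryocytic factor gene Nfe2 went from 6.87 and 8.38 CPM to 0.432 and 0.312 CPM (-4.34, SE 0.36, adjusted p = 0.0476). The 2 most abundant of the others were the kinase gene Prkcq (-0.14, SE 0.21) and the myosin light chain gene Myl9 (0.98, SE 0.25, adjusted p = 0.166). The myeloid factor gene Spi1, at 8.15 and 7.47 CPM (WT) against 0.605 and 0.234 CPM (KO), did not pass (adjusted p = 0.064) and was named after its value was seen. At an unadjusted p under 0.05, 6 of the 11 were lower and 1 was higher, where 7.86% of all genes were lower and 7.61% higher. The list's median log2 fold change of -0.56 is the value of Alox12, which like Mpo and Itga2b is among the 6 and lies on chromosome 11.

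Targets of the other Runx proteins gave no call over all genes. Of 10 RUNX2 targets of bone, 6 were tested, and 0 were lower or higher at an unadjusted p under 0.05 by edgeR or at an adjusted p of 0.05 by DESeq2. Among them the collagen gene Col1a1 stood at 37.0 and 176 CPM (WT) against 92.8 and 272 CPM (KO), and the phosphatase gene Alpl at 102.5 and 29.4 CPM (WT) against 47.2 and 78.7 CPM (KO), so the samples of a genotype differed as much as the genotypes. Of 10 RUNX3 targets of neurons and lymphocytes, 7 were tested, with 1 lower and 3 higher at an unadjusted p under 0.05 (7.86% and 7.61% of all genes) and 0 past the adjusted threshold (0.185% of all genes). DESeq2 called 1 of them, higher, where it called 3.69% of all genes higher and 3.85% lower. The most abundant were the cell cycle inhibitor gene Cdkn1a (0.38, SE 0.30) and the pro-apoptotic gene Bcl2l11 (0.65, SE 0.13, edgeR adjusted p = 0.115). The medians were 0.20 and 0.38.

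Of 10 genes known to act upstream of Runx1, 0 passed over all genes by edgeR. At an unadjusted p under 0.05, 4 were lower and 0 higher, where 7.86% and 7.61% of all genes were. DESeq2 called 3 lower and 0 higher, against 3.85% and 3.69% of all genes. The median log2 fold change was -1.15, and the genotypes overlapped for Etv6, Bmp4 (-0.27, SE 0.81) and Mixl1 (-1.09, SE 1.21). Values lay below 0 for 9 of the 10 genes and above it for Elf1 (0.36, SE 0.16). Bmp4, Mixl1 and Elf1 were named here with their values in view. The homeobox gene Hhex stood at 28.6 and 32.9 CPM (WT) against 15.0 and 9.56 CPM (KO) (-1.33, SE 0.26, adjusted p = 0.111). The ETS factor gene Fli1, which like Hhex was named after its value was seen, stood at 39.8 and 29.2 CPM (WT) against 19.1 and 10.7 CPM (KO) (-1.21, SE 0.33, adjusted p = 0.189). The most abundant members were the receptor gene Notch1 (-0.42, SE 0.16) and the ETS repressor gene Etv6 (-0.21, SE 0.15). Fli1, Erg and Sox17 are also endothelial genes, and the summed level of 5 endothelial markers (Cdh5, Pecam1, Tek, Tie1 and Esam) was 689 and 353 CPM (WT) against 437 and 180 CPM (KO). Of these 5, only Pecam1 was lower at an unadjusted p under 0.05 (log2 fold change -2.03, SE 0.55, unadjusted p = 0.0202, edgeR adjusted p = 0.215), and the value of Cdh5 was 0.050 (SE 0.61). The part of endothelial cells in the values of the Runx1 regulators was not tested.

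The partners of the proteins form 3 lists. Of 14 Ldb1 complex genes that work with Cbfa2t3, Ldb1 included, the repressor gene Gfi1b fell from 6.79 and 8.42 CPM (WT) to 0.302 and 0.312 CPM (KO). Its log2 fold change was -4.61 (SE 0.35, edgeR adjusted p = 0.0476). Of the 14, 1 passed as lower and 0 as higher, where 0.125% and 0.0596% of all genes did. At an unadjusted p under 0.05, 6 were lower and 3 higher (7.86% and 7.61% of all genes), and DESeq2 also called 6 lower and 3 higher (3.85% and 3.69%). One of the lower genes, Gata1, is also among the blood markers above. The most abundant others were the demethylase gene Kdm1a (0.16, SE 0.12) and the Ldb1-stabilising gene Ssbp3 (0.69, SE 0.19). Of 15 ETO corepressor partners, 0 passed by edgeR, and 3 were lower and 2 higher at an unadjusted p under 0.05 (7.86% and 7.61% of all genes). DESeq2 also called 3 lower and 2 higher (3.85% and 3.69%). The 3 lower genes, Ncor1, Gps2 (-0.64, SE 0.15) and Zfp652 (-0.63, SE 0.17), all lie on chromosome 11, with its median of -0.47. Of the 2 higher genes, Irf2bp2 (0.92, SE 0.16) lies on chromosome 8, with its median of 0.25, and Hdac1 on chromosome 4. The choice to name Gps2, Zfp652 and Irf2bp2 was made with their values in view. Their most abundant members were the corepressor gene Ncor1 (-0.54, SE 0.13, adjusted p = 0.148) and the deacetylase gene Hdac1 (0.45, SE 0.13, adjusted p = 0.182). Of 16 measured Runx partners and modifiers, 0 passed, 1 was lower and 0 were higher at an unadjusted p under 0.05 (7.86% and 7.61% of all genes). DESeq2 called 0 of the 16 (3.85% and 3.69% of all genes). Yap1 (0.24, SE 0.24) and the acetyltransferase gene Ep300 (0.065, SE 0.15) were the most abundant of them. The medians of the 3 lists were -0.15, -0.039 and -0.14.

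**Figure D5:**
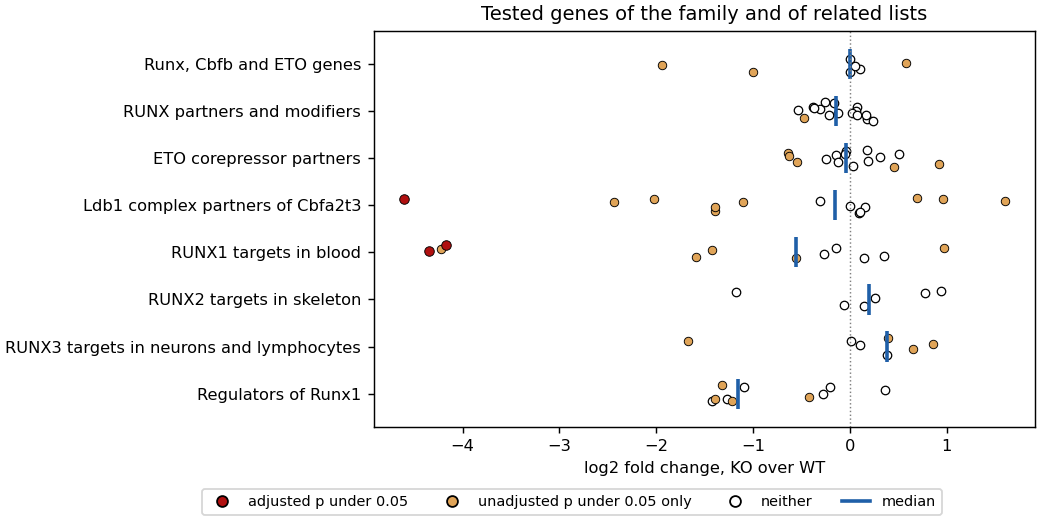
Log2 fold change, KO over WT, of each tested gene of the family and of the 7 related lists. Red marks passed the edgeR test over all genes, orange marks had an unadjusted p under 0.05 only, open marks had neither, and blue lines are medians. Marks are spread vertically at random within a list. Red marks are Gfi1b, Itga2b and Nfe2, and the 3 orange marks of the family are Cbfa2t3, Runx1 and Cbfb.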

How the data were processed

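The deposited table holds raw read counts per Ensembl gene and 1 transcript length per gene, per the file headers. DESeq and build mm9 are named in the submitters' processing notes. The sources used here do not give the aligner, the counter or the strand setting. For each peak the deposited list gives coordinates, the maximum signal (coverage) of the ChIP library and of the control, and an adjusted p-value, per the file headers. Whether starts count from 0 or 1 is not given.

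Symbols were paired with 20362 of 21868 genes. The mean chi-square of 2 libraries (genes of 20 or more reads) was 1.065 to 1.101 for the 4 library pairs summed and 12.8 to 28.5 for the other 8 within a genotype. All genes that passed filterByExpr entered one edgeR 4.0.16 fit (R 4.3.3) with TMM scaling and robust quasi-likelihood tests, adjusted by Benjamini-Hochberg. SE is the log2 fold change divided by the square root of F, and 95% intervals use the test's degrees of freedom. DESeq2 1.42.0 and limma 3.58.1 (voom) were alternatives. Per-kb levels divide CPM by the deposited transcript length. Chromosomes came from RefSeq (GRCm38.p6), with medians over genes above a log2 CPM of 3. Peaks overlapping the mm9 window chr16:92550000-92880000 by any base were taken. Python 3.11.15 was used for peaks and promoters.

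All 7 members were named. For Runx1 and Cbfa2t3 the 5 nearest genes by pattern were named, and for Runx1 the nearest 2 measured genes on each side. Of each list, members past the test and the 2 most abundant others were named. Another blood marker is not reported here. Members and lists were chosen with earlier results of these data known. On data simulated for KO against WT (16785 genes, 3 runs of 200 changed genes) edgeR found 41.3% of genes changed 2-fold and 92.7% of those changed 4-fold. False calls numbered at most 10, and 0 when no gene changed. Each simulated gene was given the spread typical of its level, and only well-counted genes were changed. The shares found may therefore not hold for real genes whose own spread is wider or whose counts are low.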

Additional observations from a re-analysis of the deposited data

Results flagged for a closer look

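Of 14 sets of 4 libraries (7 genes in 2 genotypes), 1 had a library that stood apart from the other 3. For Cbfb in WT the levels were 86.3, 86.1, 85.8 and 83.3 CPM, and the gap below the other libraries took up 0.840 of the whole range. Chance gives such a gap in about 1 of 20 sets, the libraries are not 4 independent samples, and the range is small beside the difference from KO.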

How the results depend on the processing

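The count of genes past the test was 31 (21 lower, 10 higher). It was 1168 by DESeq2, 3 by limma-voom, 151 without a filter on low counts, 5 with at least 1 CPM in 2 samples and 3860 with 8 libraries as separate samples. Replicate numbers were shared between genotypes, but the labels tie them to no culture or day, and the changes from sample A to B in WT and KO correlated at -0.081 across 16785 genes. With a replicate block the count was 5, and 0 family members passed, as without it. Leaving out 1 library or sample gave 0 to 1674 genes. The highest counts came with WT sample A (1537) or WT sample B (1674) left out. The count was 0 by edgeR with either KO sample left out, and an unadjusted p under 0.05 was then reached by 1704 (KO A) and 1106 genes (KO B). A lone sample is assumed to vary like the others. With chromosome medians removed, 22 genes passed, 19 lower and 3 higher.

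The count of family members past the test was 0. It was 2 by DESeq2 (Cbfb and Cbfa2t3), 3 with 8 libraries as separate samples (these and Runx1), and 0 to 2 with 1 library or sample left out. With a sample left out, Runx1 and Cbfa2t3 passed only where 1 WT sample remained, which also gave many more calls over all genes. The sign of Runx1, Runx2, Cbfb and Cbfa2t3 held in all 22 alternatives. Many of these could shift a value only a little, since leaving out 1 library keeps its near-duplicate and the scalings differ little. The fit of 8 separate libraries counts near-duplicates as replicates. Runx3 and Runx1t1 lay near 0 and changed sign in 11 and 7 of the 22 alternatives. Runx3 was -0.023 with upper quartile scaling, -0.026 with library size scaling, -0.0091 with the stricter filter, -0.0018 with 8 libraries and -0.027 with chromosome medians removed. Runx1t1 was 0.0048 without a filter. With 1 library or sample left out, Runx3 lay between -0.068 and 0.080, Runx1t1 between -0.058 and 0.053, and Cbfa2t2, which changed sign without WT sample B, between -0.11 and 0.24. The 4 peaks of the Runx1 area were 3 at a coverage of at least 40 or an adjusted p of at most 0.001, and 4 when peaks had to lie 10 kb inside the window. A wider window was not tried, and the next listed peak, 61.7 kb after R4, lies a little beyond the window's end. With 2 samples per genotype, simulated 2-fold changes were missed more often than found. The part of depth in this was not tested.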
